A study of Bos taurus with 31 samples.

Results

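The 28 genes described here encode enzymes that build cholesterol and proteins that sense sterols and switch those enzymes on or off. They were chosen by name: every row of the deposited count table whose gene name was on a list of cholesterol synthesis and sterol sensing genes was taken. All 28 genes had a row among the 14084 rows of the table, and all 28 passed the filter on low counts. No measured value entered this rule, but the genes were chosen with earlier results of these data known.

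Expression was measured by poly-A RNA sequencing in mammary epithelial organoids of dairy cows, the clumps of epithelium that remain when biopsied gland is digested with collagenase, trypsin and hyaluronidase and single cells are spun away. The virgin group held 15 libraries from biopsies at 14 months of age, and the lactating group held 16 libraries from biopsies at day 40 to 60 of lactation. The animals numbered 16, of which 15 were sampled at both stages. No treatment, allele or diet is named in the labels for either group. All virgin biopsies were taken at 14 months and all others in lactation, so stage, age and parity cannot be told apart. Each library is called by its stage and cow, so that V479 and L479 are the virgin and the lactating library of the same cow. Total counts over all rows ran from 20128378 to 60114505 in virgin and from 26827018 to 72138358 in lactating libraries.

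Several features of the libraries bear on the values. V479 stood apart, with a median absolute deviation from the virgin medians of 0.956 on the log2 scale over all rows against at most 0.472 in the other virgin libraries, and it was the highest virgin library for 10 of the 28 genes. The share of counts on 7 milk protein genes was 0.0281% to 0.682% in virgin libraries. In lactating libraries it fell into separate ranges, 0.243% to 11.4% in 7 libraries (L478, L490, L504, L531, L538, L581 and L615) and 26.1% to 51.5% in the other 9. Summed marker levels of luminal epithelium ran from 2767 to 12780 CPM (counts scaled to the size of each library) in virgin and from 2063 to 5405 in lactating libraries, and EPCAM, which defines epithelium, was not called (log2 fold change -0.11). Those of endothelium (34.0 to 737 CPM in virgin, 249 to 1631 in lactating libraries) and of macrophages and monocytes (16.4 to 75.2 CPM, 123 to 576 CPM) were higher in lactation in 15 of 15 cows with both stages. By gene, 7 of 13 luminal markers were lower and 1 higher, 10 of 10 endothelial and 7 of 7 tested lymphocyte markers higher, and 3 of 6 adipocyte markers higher and 1 lower. Of all rows tested, 24.2% were higher and 30.9% lower. The endothelial marker PECAM1 had the same counts as POLG2. KRT14 and KRT17 had the same counts in every library, so that the tested basal markers were 6 loci. Of these loci, 2 were lower (KRT5 and the locus of KRT14 and KRT17) and OXTR was higher. KRT5 shared its counts with KRT6A, KRT6B, KRT75 and unnamed genes, and KRT14 and KRT17 shared theirs with KRT16 and KRT42. Neither fall can thus be given to the basal keratins alone. Fewer cells of a type and less RNA per cell cannot be told apart in these bulk samples.

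Cholesterol is made from acetyl-CoA through mevalonate, isoprenoid diphosphates, squalene and lanosterol. In human and rodent cells, the transcription factor SREBP-2, encoded by SREBF2, is held in the endoplasmic reticulum by SCAP and an INSIG protein while sterols are plentiful. When sterols fall, SCAP carries it to the Golgi, where the proteases encoded by MBTPS1 and MBTPS2 release the part that switches on the enzyme genes and INSIG1. Excess sterol in the form of oxysterols activates the liver X receptors, which switch on genes of sterol export. In the mammary gland, cholesterol goes into cell membranes and into the membrane that wraps milk fat globules. The roles given below are those known from human and rodent work.

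Between lactating and virgin organoids, 12 of the 28 genes were higher in lactation, 2 were lower and 14 did not pass the test (quasi-likelihood test of edgeR, p under 0.05 after Benjamini-Hochberg adjustment over 13180 rows). Over all rows tested, 24.2% were higher and 30.9% were lower. The median log2 fold change was 0.23 over the 28 genes and -0.08 over all rows. By stage of the pathway, 3 of 5 genes were higher and 1 was lower in the mevalonate pathway, and 2 of 3 were higher in isoprenoid synthesis. From squalene to lanosterol 1 of 3 was higher, and from lanosterol to cholesterol 3 of 8. The last 2 of these shares are near that of all rows, and the stages hold too few genes for more than the counts. The first 2 shares include HMGCS1 and IDI1, whose calls were lost with the animal as a block. The largest log2 fold changes among the 28 were those of INSIG1 (2.57) and NR1H3 (1.42). Only INSIG1 passed a test of a change over 2-fold (glmTreat adjusted p = 0.00169), against 5.39% of all rows higher and 2.8% lower by that test. With the animal as a block 10 genes were higher and 2 lower (27.9% and 27.8% of all rows), and NR1H3 passed the 2-fold test too (6.62% of all rows higher and 2.48% lower).

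This split differed with the scaling between libraries. Without the TMM factors, which correct for a few abundant transcripts taking up counts, 3 genes were higher (INSIG1, SC5D and NR1H3) and 12 were lower, while 10.5% of all rows were higher and 58.8% lower. By the 2-fold test INSIG1 was then higher and SCAP and MVD were lower, with 2.59% and 7.84% of all rows. The median log2 fold change then was -0.56 over all rows and -0.27 over the 28 genes. The other 9 genes were not called higher without TMM factors, and SC5D was then the only enzyme that was. Without V479, 11 genes were higher and 3 lower, with 27.5% and 32.6% of all rows.

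**Figure D1:**
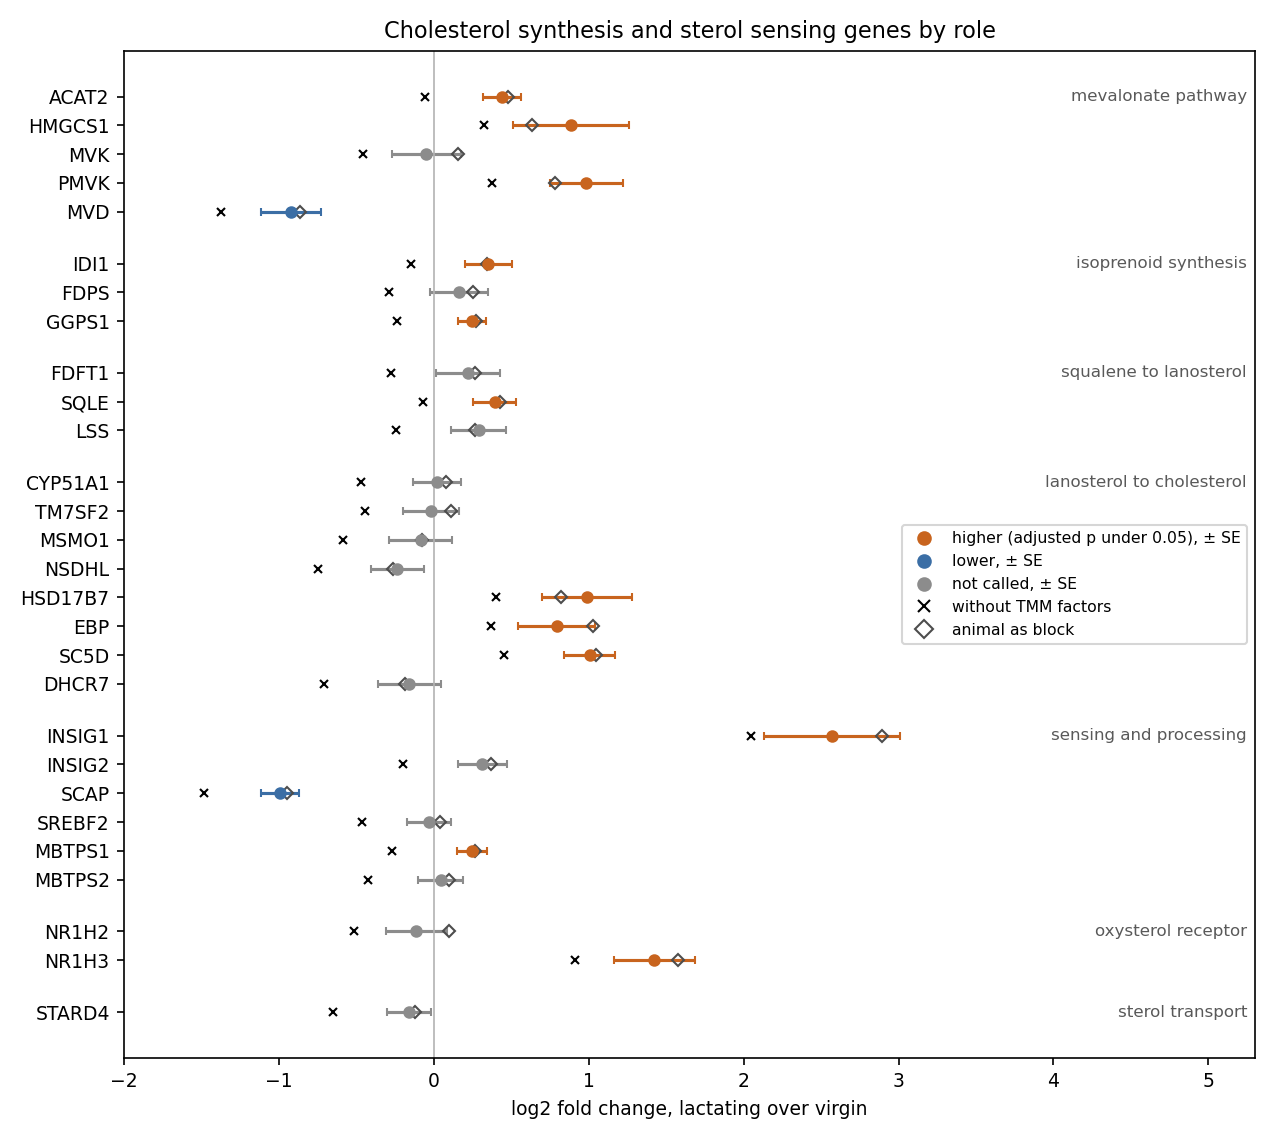
Log2 fold change of each gene, lactating over virgin, grouped by its role. Filled points are the fit on 15 virgin and 16 lactating libraries with bars of ± 1 SE, coloured by the call at adjusted p under 0.05. Crosses are the values without TMM factors, and open diamonds those with the animal as a block. INSIG1 lies farthest to the right at 2.57 and SCAP farthest to the left at -0.995, and the crosses lie to the left of the points throughout.

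The mevalonate pathway opened with 2 genes that were higher in lactation. ACAT2, which joins acetyl-CoA units to acetoacetyl-CoA, ran from 28.7 to 81.5 CPM in virgin libraries (median 48.3) and from 52.9 to 89.9 CPM in lactating libraries (median 65.1). It was higher in lactation in 14 of 15 cows (log2 fold change 0.44 ± 0.123 SE, edgeR adjusted p = 0.00311), although the ranges of the groups overlapped. Without TMM factors its log2 fold change was -0.06.

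HMGCS1 encodes the cytosolic HMG-CoA synthase, which makes HMG-CoA, the compound from which mevalonate is formed. Its level in virgin libraries had a lowest value of 26.9 CPM in V610, a median of 57.6 CPM and a highest value of 235 CPM in V478. In lactating libraries the lowest was 18.5 CPM in L538, the median 124 CPM and the highest 339 CPM in L509. The lactating range thus reached beyond the virgin range on both sides, with 2 lactating libraries below every virgin one and 4 above. The log2 fold change was 0.89 ± 0.374 (SE, edgeR adjusted p = 0.0442), and 9 of 15 cows were higher. The call was lost with the animal as a block (0.64, edgeR adjusted p = 0.244). It was also lost when any of 17 single libraries was left out (L479, L502, L507, L509, L595, L598, L610, V468, V479, V502, V509, V531, V538, V581, V598, V610 and V615), with values of 0.75 to 0.90 and adjusted p of 0.0501 to 0.0870. The 7 lactating libraries with a low milk protein share held the 7 lowest lactating HMGCS1 levels, at most 74.7 CPM against at least 117 CPM in the other 9. The part of the milk protein share in the HMGCS1 difference was not tested.

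The 3 enzymes that turn mevalonate into isopentenyl diphosphate went different ways. MVK, mevalonate kinase, was not called, with medians of 9.74 CPM in virgin and 10.3 CPM in lactating libraries (-0.05 ± 0.222 on the log2 scale, edgeR adjusted p = 0.865). PMVK, phosphomevalonate kinase, was counted at low levels, from 0.50 to 1.02 CPM in virgin (median 0.77) and from 0.44 to 4.10 CPM in lactating libraries (median 1.24). PMVK was called higher (0.98 ± 0.238 on the log2 scale, edgeR adjusted p = 7.68e-04), with 10 of 16 lactating libraries above the highest virgin one and L538 below the lowest. MVD, which removes a carboxyl group to give isopentenyl diphosphate, was lower in lactation. Its virgin libraries ran from 4.11 to 24.3 CPM (median 8.29, highest in V479) and its lactating libraries from 2.54 to 7.74 CPM (median 4.74). The log2 fold change of MVD was -0.92 ± 0.194 (edgeR adjusted p = 1.71e-04), and 14 of 15 cows were lower in lactation.

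Isoprenoid synthesis leads from isopentenyl diphosphate to the chains used for sterols, dolichol and the lipid anchors of proteins. IDI1, which interconverts the C5 isoprenoids, ran from 14.2 to 45.2 CPM in virgin (median 27.9) and from 20.3 to 50.9 CPM in lactating libraries (median 35.0). Its rise was small (log2 fold change 0.35 ± 0.150, edgeR adjusted p = 0.0475). The IDI1 call was lost with the block (0.35, edgeR adjusted p = 0.069) and without any of 21 single libraries (L468, L479, L495, L502, L504, L507, L509, L595, L598, L610, L615, V479, V502, V504, V509, V531, V538, V581, V598, V610 and V615), with values of 0.28 to 0.36. GGPS1, which makes the chain for protein geranylgeranylation, ran from 13.6 to 35.4 CPM in virgin and from 28.4 to 40.0 CPM in lactating libraries. It was higher in 14 of 15 cows (log2 fold change 0.25 ± 0.093, edgeR adjusted p = 0.0246). The GGPS1 call did not hold without V581 (adjusted p = 0.0574). FDPS, farnesyl diphosphate synthase, was not called (0.16 ± 0.185, edgeR adjusted p = 0.473), but was called higher without V479 (0.34, adjusted p = 0.049). The FDPS locus as counted was 2.14 times its RefSeq length, so reads of a neighbour may be included. Without TMM factors the log2 fold changes of IDI1, GGPS1 and FDPS were -0.15, -0.24 and -0.29.

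From squalene to lanosterol, 1 gene of 3 was called. SQLE, squalene epoxidase, the first oxygen-using step of the pathway, ran from 44.7 to 133 CPM in virgin libraries (median 77.6) and from 71.0 to 147 CPM in lactating libraries (median 100.3). It was higher in 12 of 15 cows (log2 fold change 0.39 ± 0.141, edgeR adjusted p = 0.0191; -0.07 without TMM factors). FDFT1, squalene synthase, which commits the chain to sterols, had a log2 fold change of 0.22 ± 0.208 and LSS, which closes the rings of lanosterol, one of 0.29 ± 0.179 (edgeR adjusted p = 0.380 and 0.175; -0.28 and -0.24 without TMM factors).

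From lanosterol to cholesterol the genes fell into 3 called higher and 5 not called. SC5D, the sterol desaturase that puts in the double bond of 7-dehydrocholesterol, had a lowest virgin value of 18.8 CPM, a median of 51.4 CPM and a highest of 93.4 CPM in V531. In lactating libraries SC5D ran from 73.5 CPM in L478 through a median of 113 CPM to 180 CPM in L507, and 12 of 16 lactating libraries lay above every virgin one. Its log2 fold change was 1.01 ± 0.165 (edgeR adjusted p = 5.71e-06), with 14 of 15 cows higher, and without TMM factors it was 0.45 (edgeR adjusted p = 0.02).

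HSD17B7, the reductase that acts on the 3-keto sterols of C4 demethylation, ran from 3.74 to 23.4 CPM in virgin (median 8.06) and from 3.57 to 46.2 CPM in lactating libraries (median 20.4). The log2 fold change of HSD17B7 was 0.99 ± 0.290 (edgeR adjusted p = 0.00465), and 12 of 15 cows were higher. EBP, the isomerase that moves the double bond from C8 to C7, ran from 1.62 to 19.7 CPM in virgin (median 3.49) and from 5.11 to 12.8 CPM in lactating libraries (median 9.04). The highest virgin value of EBP came from V479, and every lactating library lay under it. Its log2 fold change was 0.79 ± 0.248 (edgeR adjusted p = 0.00748), and 1.11 without V479.

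The other 5 genes of this stage had log2 fold changes between -0.24 and 0.02. They were CYP51A1, the lanosterol demethylase (0.02 ± 0.154, medians 38.1 and 40.6 CPM), TM7SF2, a C14 reductase (-0.02 ± 0.181), MSMO1, the C4 methyl oxidase (-0.09 ± 0.202), NSDHL, the C4 decarboxylase (-0.24 ± 0.171), and DHCR7, which makes cholesterol from 7-dehydrocholesterol (-0.16 ± 0.202). The edgeR adjusted p of these 5 ran from 0.247 to 0.930. TM7SF2 had the same counts as VPS51 in every library, over a locus 3.82 times its RefSeq length, so its value is not that of TM7SF2 alone.

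INSIG1 encodes the membrane protein that holds SCAP in the endoplasmic reticulum when sterols are plentiful, and it is itself a target of SREBP-2. Its virgin libraries ran from 13.3 CPM in V610 through a median of 50.8 CPM to 299 CPM in V490. Its lactating libraries ran from 85.2 CPM in L478 through a median of 487 CPM to 1059 CPM in L507. The groups overlapped, as 7 of 16 lactating libraries lay at or under the highest virgin value and 4 of 15 virgin libraries at or over the lowest lactating one. The log2 fold change was 2.57 ± 0.441 (edgeR adjusted p = 1.18e-05), a 5.94-fold rise, and 13 of 15 cows were higher. Leaving out each library in turn gave 2.44 to 2.89. The 7 lactating libraries of low milk protein share held the 7 lowest lactating INSIG1 levels, at most 267 CPM against at least 478.6 CPM in the other 9, and the part of that share in the difference was not tested. The INSIG1 locus as counted was 2.19 times its RefSeq length.

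INSIG2, the second INSIG protein, had medians of 4.22 CPM in virgin and 5.28 CPM in lactating libraries and was not called (0.31 ± 0.160, edgeR adjusted p = 0.0956; adjusted p = 0.0384 without V509). The ratio of INSIG1 to INSIG2 counts within a library does not depend on the scaling between libraries. Its log2 value was 3.71 ± 1.69 (SD, n = 15) in virgin and 6.11 ± 1.36 (SD, n = 16) in lactating libraries. The difference of 2.41 ± 0.554 (SE) passed a two-sided permutation test that left the cows unpaired (100000 resamples, p = 0.0002, adjusted over 4 pairs p = 0.0004). Within the 15 cows with both stages the mean difference was 2.39, and 13 of 15 cows were higher. A sign permutation test on these paired differences gave p = 0.0022 (adjusted p = 0.0044).

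SCAP, the sterol sensor that escorts SREBP-2, was lower in lactation in 15 of 15 cows. Virgin libraries ran from 23.7 to 55.2 CPM (median 35.1) and lactating libraries from 14.9 to 24.1 CPM (median 18.3), and 14 of 16 lactating libraries lay below every virgin one. The log2 fold change was -0.995 ± 0.122 (edgeR adjusted p = 4.65e-08). SCAP had the same counts as ELP6, a subunit of the Elongator complex, in every library, so the fall is that of a locus listed under both names.

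SREBF2 itself was not called, with medians of 66.9 CPM in virgin and 70.8 CPM in lactating libraries (-0.03 ± 0.143 on the log2 scale, edgeR adjusted p = 0.864). Of the proteases, MBTPS1 was slightly higher in lactation (medians 21.3 and 24.3 CPM, log2 fold change 0.25 ± 0.096, edgeR adjusted p = 0.0284). The MBTPS1 call was lost without V490 (0.21, adjusted p = 0.0502), and its log2 fold change was -0.27 without TMM factors. MBTPS2 was not called (0.04 ± 0.145, edgeR adjusted p = 0.823). The ratio of MBTPS1 to MBTPS2 differed by 0.18 ± 0.203 (SE, permutation test, adjusted p = 0.377) and that of HMGCS1 to SREBF2 by 0.56 ± 0.383 (SE, permutation test, adjusted p = 0.213) on the log2 scale, and neither passed. With the cows paired, the sign permutation test gave an adjusted p of 0.248 for each.

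**Figure D2:**
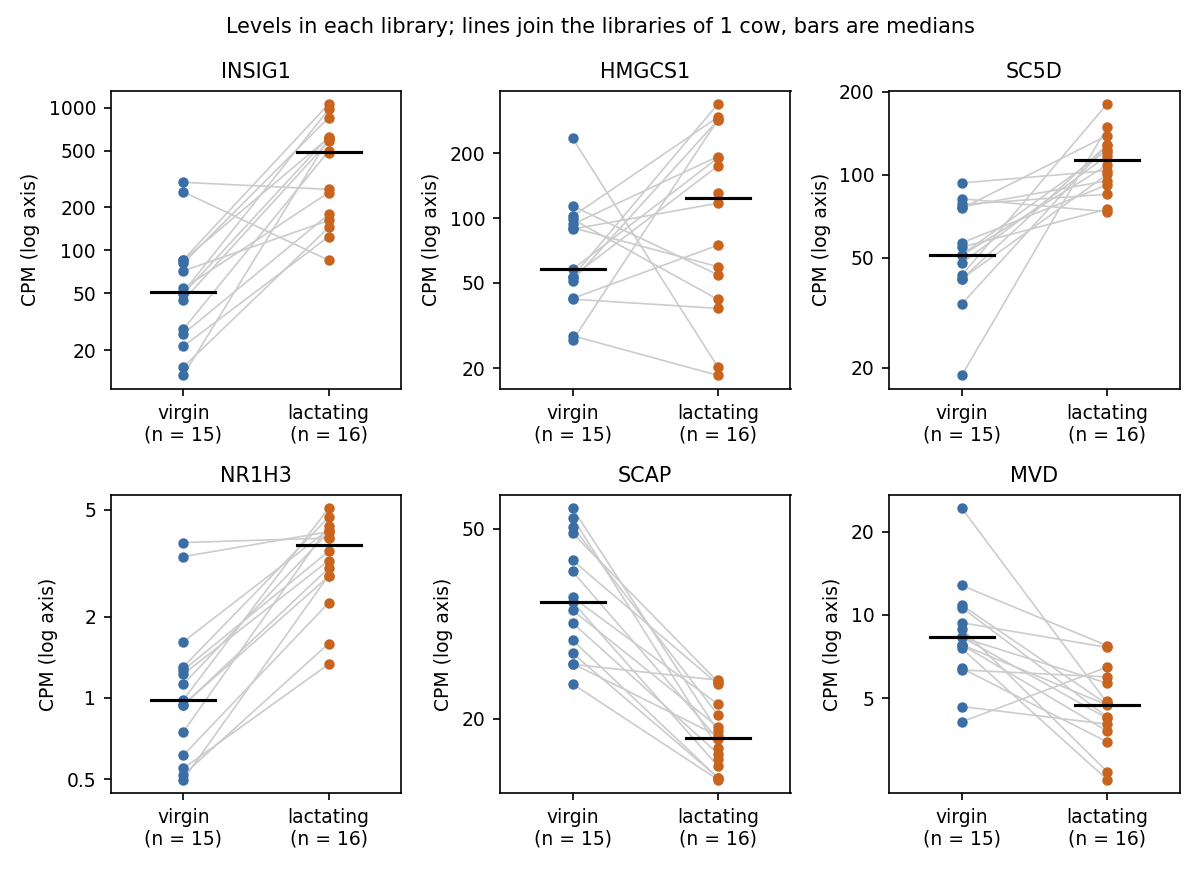
CPM in each library on a log axis for 6 genes, with virgin libraries (n = 15) in blue, lactating libraries (n = 16) in orange, lines between the libraries of a cow and bars at the group medians. INSIG1 runs from 13.3 to 299 CPM in virgin and from 85.2 to 1059 CPM in lactating libraries, HMGCS1 has a wider spread in lactation than before it, and every line of SCAP goes down.

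NR1H3 and NR1H2 encode the liver X receptors alpha and beta, which read oxysterols. NR1H3 was counted at low levels, from 0.498 to 3.77 CPM in virgin libraries (median 0.984, highest in V479) and from 1.33 CPM in L538 to 5.05 CPM in L507 in lactating libraries (median 3.70). It was higher in 15 of 15 cows, although the ranges overlapped and 8 of 16 lactating libraries lay above every virgin one. Its log2 fold change was 1.42 ± 0.261 (edgeR adjusted p = 2.94e-05), a 2.68-fold rise. NR1H2 had medians of 32.8 and 30.6 CPM and was not called (-0.11 ± 0.197, edgeR adjusted p = 0.644).

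The log2 ratio of NR1H3 to NR1H2 counts was -4.76 ± 0.759 (SD, n = 15) in virgin and -3.25 ± 0.559 (SD, n = 16) in lactating libraries. The difference of 1.51 ± 0.241 (SE) gave the smallest p that the unpaired permutation test allows (p = 2e-05, adjusted p = 8.0e-05). With the cows paired it was 1.49, with 15 of 15 cows higher. The sign permutation test then also gave its smallest possible p (p = 6.1e-05, adjusted p = 2.44e-04). Macrophages are known to express NR1H3. Of 11 tested macrophage and monocyte markers, 10 were higher in lactation and 0 lower, none was at 0 throughout a stage, and their summed level lay above the highest virgin value in 16 of 16 lactating libraries. Much of that sum was CD14 (medians 17.8 and 182 CPM), whose locus as counted had 25.9 times the length of the gene in RefSeq. CSF1R, which defines the lineage, had medians of 2.70 and 11.5 CPM. The part of macrophage RNA in the NR1H3 rise was not tested.

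**Figure D3:**
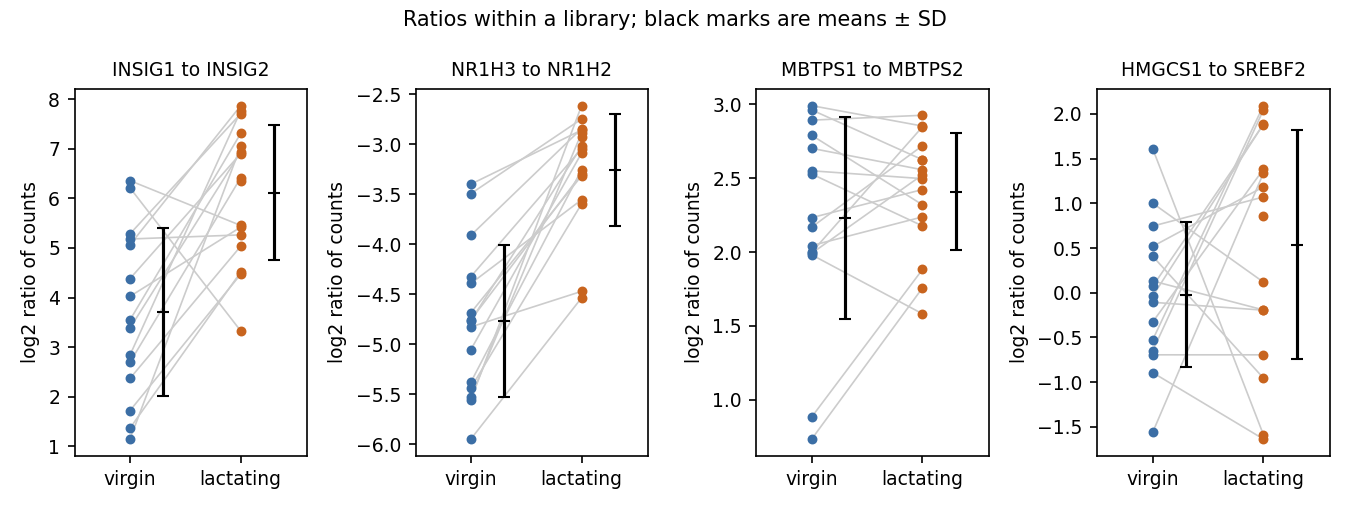
Log2 ratio of the counts of a pair of genes within each library, with blue points for virgin (n = 15) and orange points for lactating libraries (n = 16), lines between the libraries of a cow and black marks at the mean ± SD. The ratios of INSIG1 to INSIG2 (means 3.71 and 6.11) and of NR1H3 to NR1H2 (means -4.76 and -3.25) differ between the stages, while those of MBTPS1 to MBTPS2 and of HMGCS1 to SREBF2 did not pass the test.

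STARD4, a carrier of cholesterol between membranes, had medians of 31.5 CPM in virgin and 27.3 CPM in lactating libraries and was not called (log2 fold change -0.16 ± 0.143, edgeR adjusted p = 0.343). Its lowest virgin value, 7.87 CPM, came from V479, without which it was called lower (-0.24, edgeR adjusted p = 0.0407).

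In the authors' deposited table, where differences are coded virgin minus lactating, 3 of the 28 genes were higher in lactation and 1 was lower at an adjusted p under 0.05, against 10.8% and 10.3% of all rows. These were INSIG1 (-2.61, adjusted p = 8.97e-06), SC5D (-1.04, adjusted p = 7.88e-06) and NR1H3 (-1.44, adjusted p = 0.00106), and SCAP (0.96, adjusted p = 1.97e-09). In the same deposited table of the authors, 22 of the 28 genes had an adjusted p of exactly 1, as did 10132 of all rows.

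The genes also differed between cows of the same stage, and many did so together. Each gene was compared with HMGCS1, the first of the enzymes that is a textbook SREBP-2 target, by the correlation of log2 CPM over the libraries of 1 stage, with p-values adjusted over 26358 relations (all rows, both stages). The HMGCS1 locus as counted was 1.85 times its RefSeq length, so reads of a neighbour may be included. In virgin libraries 7 of the other 27 genes were called as positively and 1 as negatively correlated, against 9.83% and 7.59% of all rows. In lactating libraries 16 were called positively and 2 negatively correlated, against 15.1% and 14.2%. The median r over the 27 genes was 0.324 in virgin and 0.704 in lactating libraries, where that of all rows was -0.025 and -0.002.

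In virgin libraries (n = 15), the highest values were those of IDI1 (Pearson r = 0.911, Spearman rho = 0.850), INSIG1 (r = 0.860, rho = 0.925) and MSMO1 (r = 0.846, rho = 0.757), each called in a permutation test with 100000 resamples (adjusted p for r = 9.83e-04, 0.00197 and 0.00215, and for rho 0.00704, 0.00454 and 0.0187). Without V478 and V610, which were farthest from the median of HMGCS1, r was 0.843, 0.764 and 0.704. FDFT1, SQLE, HSD17B7 and MBTPS2 were also called, at r of 0.667 to 0.773, the last of these not by rho. MBTPS1 was the gene called as negatively correlated (r = -0.773, rho = -0.825, permutation adjusted p = 0.00784 and 0.00920). INSIG2 passed by rho but not by r (rho = -0.771, r = -0.605, permutation adjusted p = 0.0167 and 0.0635). Without V479, 11 genes were called positive and 2 negative, against 15.4% and 13.1% of all rows.

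In lactating libraries (n = 16), INSIG1 (r = 0.948, rho = 0.947), FDFT1 (r = 0.948, rho = 0.915), NSDHL (r = 0.906, rho = 0.929) and IDI1 (r = 0.906, rho = 0.894) were the closest to HMGCS1, all with the smallest p that the permutations allow (p = 1e-05, adjusted p for r = 9.83e-04, for rho 0.00454). Without L478 and L538, the libraries farthest from the median of HMGCS1, r was 0.940, 0.907, 0.877 and 0.853. DHCR7, MSMO1, LSS, EBP, SC5D, FDPS, HSD17B7, CYP51A1, NR1H3, PMVK, MVD and SQLE were called at r of 0.633 to 0.901. INSIG2 (r = -0.685, rho = -0.671, permutation adjusted p = 0.0189 and 0.0335) and GGPS1 (r = -0.681, rho = -0.735, permutation adjusted p = 0.0241 and 0.0193) ran against HMGCS1. Of the genes that were not called between stages, FDFT1, NSDHL, DHCR7, MSMO1, LSS, FDPS and CYP51A1 thus varied with HMGCS1 between lactating cows.

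**Figure D4:**
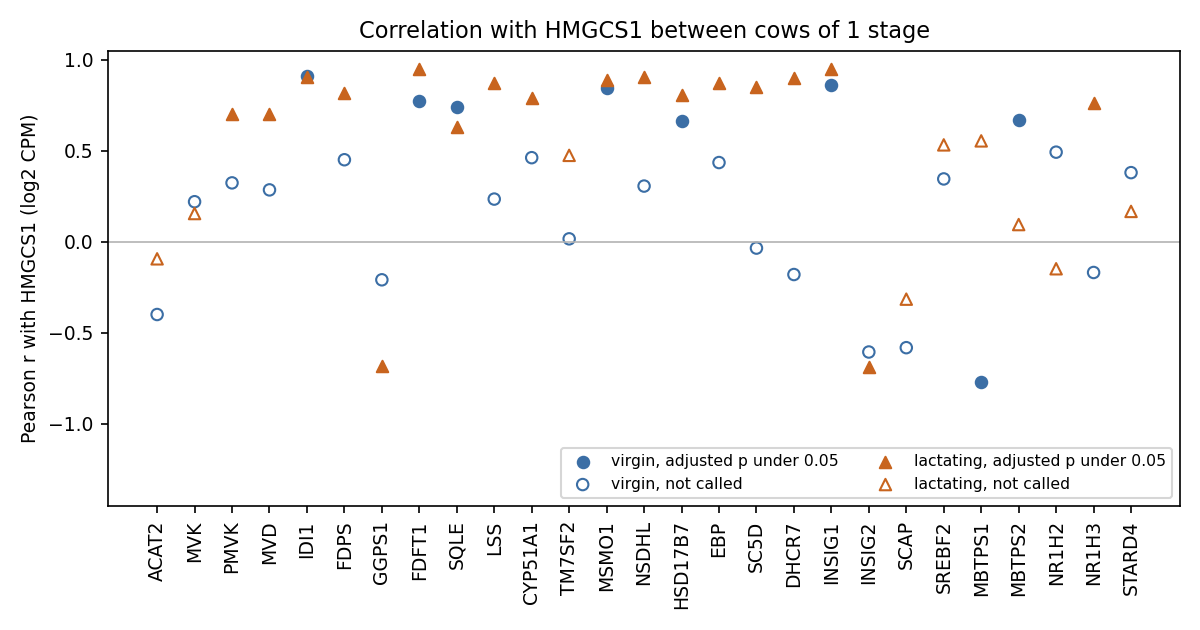
Pearson r of each gene with HMGCS1 over log2 CPM, for virgin (circles, n = 15) and lactating libraries (triangles, n = 16), with filled marks for an adjusted permutation p under 0.05. In lactating libraries 16 genes are filled above 0 and 2 below, and in virgin libraries 7 above and 1 below.

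The relations were also computed within the ranges of milk protein share and under another scaling. Within the 7 lactating libraries of low share, r of the 16 positively correlated genes ran from 0.367 to 0.983 with a median of 0.711. Within the 9 of high share it ran from -0.330 to 0.880 with a median of 0.722, and 15 were above 0. These 16 had been called over the same libraries, so their signs are no independent support. Of all rows called positive over the 16 libraries, 94.2% had r above 0 in the low and 61.5% in the high range, with medians of 0.613 and 0.122. After adjustment over all rows of both ranges, 0 of the 27 genes and 0 of all rows passed the permutation test within either range. At an unadjusted permutation p under 0.05, 5 of the 27 were positive and 0 negative in the low range (5.77% and 6.21% of all rows), and 10 positive and 1 negative in the high range (2.82% and 3.36%). INSIG1 had an r of 0.730 and 0.723 in the 2 ranges, FDFT1 0.983 and 0.612, and PMVK 0.889 and -0.330. The negative r of GGPS1 was 0.021 and -0.368 within the ranges, so that it did not hold within the low range. When L478 and L538 were left out, 10 genes were called positive and 1 negative, against 6.25% and 5.11% of all rows. Without TMM factors 7 were positive and 3 negative in lactating libraries (4.89% and 27.3% of all rows), and 4 and 1 in virgin libraries (4.1% and 14.2%).

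Some genes had unlike values of r in the stages. DHCR7 had -0.180 in virgin and 0.901 in lactating libraries, SC5D -0.034 and 0.850, and NR1H3 -0.168 and 0.764. Within the low and high ranges of milk protein share, DHCR7 had 0.367 and 0.774 in lactating libraries. SC5D had 0.574 and 0.351 within these ranges, and NR1H3 0.708 and 0.212. Without L478 and L538 the lactating r of DHCR7, SC5D and NR1H3 was 0.908, 0.79 and 0.51. The difference between the stages was not tested for any gene. SCAP had a negative r in both (-0.582 and -0.315), and neither was called.

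**Figure D5:**
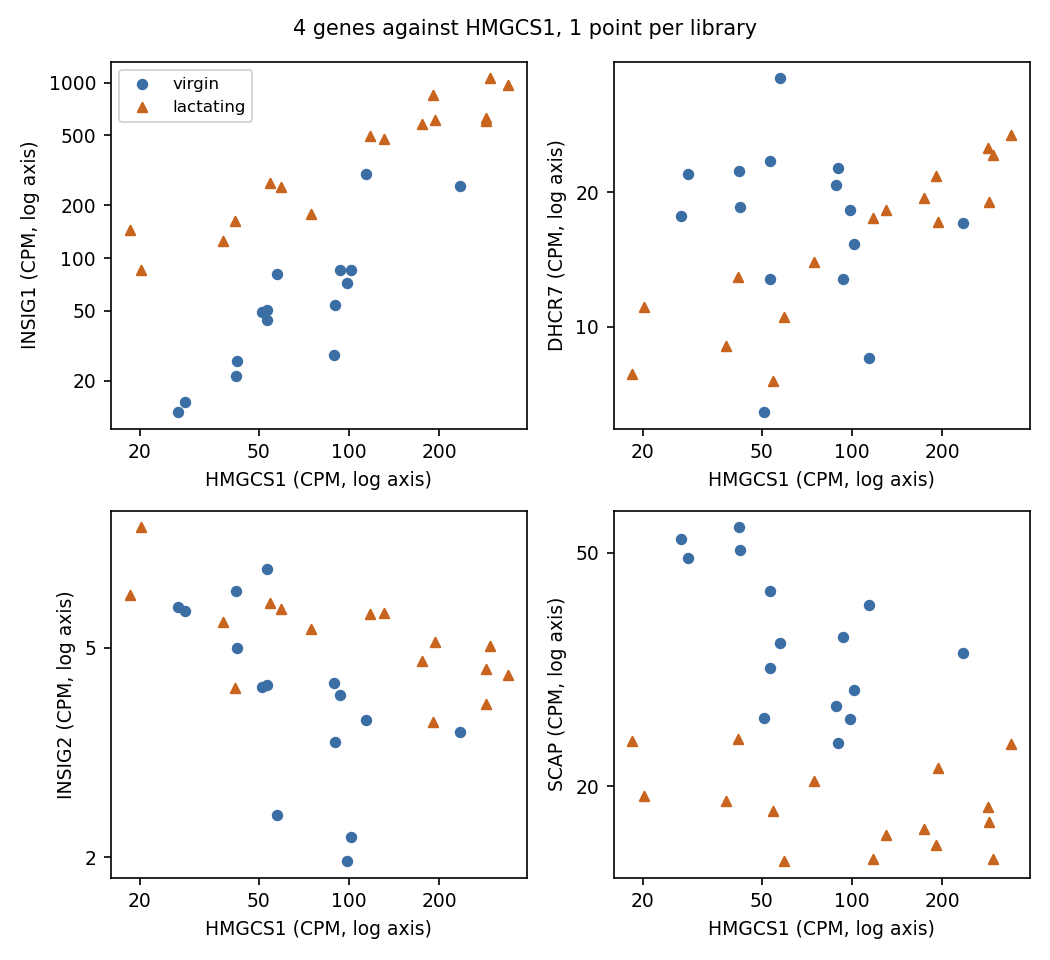
INSIG1, DHCR7, INSIG2 and SCAP against HMGCS1, both in CPM on log axes, with blue circles for virgin (n = 15) and orange triangles for lactating libraries (n = 16). INSIG1 goes up with HMGCS1 in both stages, and at like HMGCS1 levels the lactating points lie above the virgin ones. DHCR7 goes up with it in lactating libraries, and INSIG2 has a negative r in both stages.

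The spread between cows was larger before lactation for 22 of the 28 genes and larger in lactation for 6, while 87.2% of all rows had the larger spread (SD of log2 CPM) in virgin libraries. HMGCS1 was among the 6, with SDs of 0.833 in virgin and 1.39 in lactating libraries. L538 was the lowest lactating library for 10 of the 28 genes and L478 for 5, and L507 and L509 were the highest for 8 and 7.

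Genes that act beside the 28 were taken from 3 further lists. Of 24 tested genes of sterol esterification, storage, trafficking and efflux, 12 were higher in lactation and 2 lower (median log2 fold change 0.47), beside 24.2% and 30.9% of all rows. SOAT1, which makes cholesteryl esters for storage, rose from 11.2 ± 3.35 to 36.8 ± 7.87 CPM (SD, n = 15 and 16; log2 fold change 1.71 ± 0.136, edgeR adjusted p = 1.92e-11). Every lactating library of SOAT1 lay above every virgin one. NCEH1, which takes such esters apart (1.73 ± 0.271), ABCG1, a sterol exporter that is a liver X receptor target (1.54 ± 0.280), and MYLIP, a ubiquitin ligase that is another such target (1.38 ± 0.203), were higher in 15 of 15 cows (edgeR adjusted p of 1.05e-06 to 2.60e-05). ABCA1, a further liver X receptor target, was not called (-0.22, edgeR adjusted p = 0.446) and is named after its value was seen. Without TMM factors 6 of the 24 were higher and 6 lower, beside 10.5% and 58.8% of all rows. The summed macrophage and endothelial markers were higher in lactation in the same cows, and their part in these rises was not tested.

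Of 13 tested genes of the branches that use isoprenoids, 7 were lower in lactation and 1 was higher (median log2 fold change -0.57), beside 30.9% and 24.2% of all rows. Without TMM factors 11 were lower and 0 higher, where 58.8% of all rows were lower. FNTB, a subunit of farnesyltransferase, fell from 5.46 ± 1.63 to 3.05 ± 0.477 CPM (SD, n = 15 and 16; log2 fold change -0.84 ± 0.125, edgeR adjusted p = 1.35e-06) and was lower in 15 of 15 cows. PGGT1B, a subunit of the enzyme that attaches geranylgeranyl chains (-0.78 ± 0.127), and RCE1, which trims prenylated proteins (-0.67 ± 0.135), were lower in 15 of 15 cows, and PDSS1, which makes the side chain of ubiquinone (-1.02 ± 0.191), in 14 of 15 (edgeR adjusted p of 4.99e-06 to 9.31e-05). PGGT1B had the same counts as CCDC112.

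Of 14 tested partners of the sterol sensors, 2 were higher and 4 lower (median log2 fold change -0.09), which is near the shares of all rows. Without TMM factors 0 were higher and 8 lower, which is again near the 58.8% of all rows that were lower. FAF2, which helps to remove ubiquitinated membrane proteins, fell from 14.6 ± 1.81 to 7.41 ± 1.35 CPM (SD, n = 15 and 16; log2 fold change -0.98 ± 0.092, edgeR adjusted p = 4.09e-10). All 16 lactating libraries of FAF2 lay below the virgin range. ERLIN1, a partner of the INSIG and SCAP complex (-0.9998 ± 0.185), and SEC23A, of the coat that carries SCAP out of the endoplasmic reticulum (-0.46 ± 0.114), were lower in 14 of 15 cows (edgeR adjusted p = 3.27e-05 and 0.00103). PGRMC1, a membrane protein that binds heme, was higher in 15 of 15 cows (0.42 ± 0.082, edgeR adjusted p = 5.56e-05), and its value was -0.04 without TMM factors.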

How the data were processed

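The authors deposited raw read counts per gene from RNA-seq. Another table deposited by the authors gave RPKM values, log2 fold changes (virgin minus lactating) and adjusted p-values. Its RPKM values are per kilobase of a locus that, for a median row, is 0.9997 times the whole RefSeq gene span, introns included, so levels are not compared between genes. HISAT2 2.0, SAMtools, StringTie 1.3.2, featureCounts 1.5.2, Subread and edgeR, and the genome build UMD3.1, are named in the submitters' processing notes, and their settings are not stated there. Strand-specific libraries were made, per the labels' protocols, but whether counting used strand is not stated.

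Counts were analysed with edgeR 4.0.16 in R 4.3.3: filterByExpr (minimum count 10, minimum total 15; 13180 of 14084 rows kept), TMM, estimateDisp, robust glmQLFit and glmQLFTest on stage alone. SE is the log2 fold change over the square root of F, and positive is higher in lactation. CPM is per TMM-scaled library. Ratios used counts + 0.5, and correlations used log2 CPM with a prior count of 2. The 13180 rows were 12504 distinct loci. The authors listed some loci under several names. No pair of libraries of a stage agreed within sampling noise (lowest chi-square per degree of freedom 33.6).

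The genes and lists were chosen with earlier results of these data known. Named genes were all 28 and the 4 of each other sterol list with the smallest p. The cow number pairs the libraries, as the series design states that both stages came from the same animals. After removal of stage means, a lactating library correlated with the virgin library of its cow at 0.0649 to 0.398 (mean 0.217) against -0.0157 with others, and 12 of 15 pairs were over 0.1. The animal block was fitted as an alternative on 30 libraries. Other alternatives were DESeq2 1.42.0, limma-voom 3.58.1, other scalings and filters, and left-out libraries. On simulated data for this comparison over 13151 rows, 14 of 50 genes changed 1.5-fold were recovered, 40 of 50 changed 2-fold, and 50 of 50 each changed 4-fold and 8-fold, with 10 unchanged genes among 164 calls. Far fewer rows were changed there than were called in the data (24.2% higher and 30.9% lower), and cows were not paired. The simulated recovery therefore does not give the share of true changes found in the data. No RefSeq coordinates are printed, since the table was of another build.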

Additional observations from a re-analysis of the deposited data

How the results depend on the processing

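Of the 28 genes, 12 were higher in lactation and 2 lower. With the animal as a replicate block 10 were higher and 2 lower, and the block moved no count of members called by over 1.5 times other than the 2 genes over 2-fold higher (INSIG1 and NR1H3), against 1. It ended the calls of HMGCS1 and IDI1 and turned MVK to 0.15, TM7SF2 to 0.11, SREBF2 to 0.0397 and NR1H2 to 0.0952, none of them called either way. Limma-voom gave 0.15, 0.12, 0.0428 and 0.098 for these 4, and ended the call of HMGCS1 (0.61, adjusted p = 0.188).

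Without TMM factors 3 of the 28 were higher, 12 lower and 2 (SCAP and MVD) over 2-fold lower. Over all rows 1389 were higher and 7751 lower, with 342 and 1033 over 2-fold. Of the genes named in the text, those that turned were SQLE (-0.074), LSS (-0.24), FDFT1 (-0.28), FDPS (-0.29), IDI1 (-0.15), CYP51A1 (-0.47), ACAT2 (-0.0569), INSIG2 (-0.20), GGPS1 (-0.24), MBTPS1 (-0.27), MBTPS2 (-0.43) and PGRMC1 (-0.043). In the other lists, positive values went from 18 to 10 of 24 for esterification, storage and efflux, from 6 to 0 of 14 for sensor partners and from 3 to 1 of 13 for isoprenoid use. The genes called as correlated with HMGCS1 were 5 in virgin and 10 in lactating libraries. They were 11 in lactating libraries without L478 and L538 and 13 in virgin libraries without V479, the latter an alternative chosen after seeing the data, as were the fit on 30 paired libraries without a block and the milk share ranges.

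Over the fits that each left out a library, 3044 to 3637 of all rows were higher and 3914 to 4307 lower. Leaving out each library in turn gave 9 to 12 of the 28 higher and 2 to 3 lower. Its values crossed 0 for CYP51A1 (-0.0341 to 0.11), MBTPS2 (-0.0033 to 0.14), MSMO1 (-0.17 to 0.0217), MVK (-0.13 to 0.23), NR1H2 (-0.18 to 0.11), SREBF2 (-0.0936 to 0.12) and TM7SF2 (-0.0909 to 0.22). Without L478 and L538, MSMO1 was 0.0279, TM7SF2 0.0059 and SREBF2 0.0004. The fit on the animals whose virgin title has no letter after the number held fewer libraries. It called 2269 of all rows higher and 2698 lower, against 3189 and 4069 with all libraries. Of the 28 genes it called 8 higher and 2 lower. In that fit MSMO1 was 0.093 and SREBF2 0.0376. The calls of EBP, HSD17B7, GGPS1 and MBTPS1 were lost there (edgeR adjusted p = 0.136, 0.0547, 0.0698 and 0.152). TM7SF2 has no value with 1 row for each locus, nor PMVK with a filter of 1 CPM in 15 libraries. The cause was not tested where a call was lost.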
